A study of Pseudotaxus chienii with 9 samples.

Results

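Leaves of the conifer Pseudotaxus chienii labelled as treated with methyl jasmonate (MeJA) for 1 day were compared with leaves labelled CK, across every gene of the deposited table. The comparison took the 3 libraries of each label, which are 6 of the 9 libraries of the series, and the libraries labelled MeJA for 2 days entered the fit only through the estimate of the spread, the scaling and the filter on low counts. The treatment label and the library title of each sample set its group. The CK label carries no MeJA treatment. Whether CK leaves had a mock treatment, when they were collected, the MeJA dose, the age and origin of the plants, and whether replicate libraries are from different plants are not given in the labels. The p-values therefore reflect the scatter among these libraries alone, and that scatter may be technical. The series title concerns taxane biosynthesis, and the comparison asks which genes and functions differed early after the hormone and whether each difference was seen in all 3 day 1 libraries.

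Jasmonates are fatty acid hormones that plants make on wounding or attack. The active form brings JAZ (TIFY) repressors to a ubiquitin ligase for destruction, which frees MYC-type transcription factors to switch on defence genes. Applied MeJA is known for raising defence chemistry in conifer tissue and taxane production in cultured yew cells, and jasmonate responses can be held back by salicylate signalling, which is known for raising pathogenesis-related proteins.

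Polyadenylated RNA was sequenced, and the total estimated count of these 6 libraries lay between 52847788 and 58239420. Of the 26827 genes in the table, 22384 passed the filter on low counts and were tested. A chlorophyll a-b binding protein of the leaf light harvesting system (PchiChr10G293360) was at 944, 1549 and 1412 FPKM (fragments scaled for gene length and library size) in CK libraries 1, 2 and 3, so the defining leaf transcripts were present. Day 1 library 2 stood apart from the other day 1 libraries. It lay above all 3 CK libraries in 39.8% of tested genes and below all 3 in 41.9%, against 34.2% and 30.4% for library 1 and 34.7% and 33.9% for library 3. A fit that weights libraries by their fit to the group gave library 2 a weight of 0.172, and the other 5 libraries weights of 1.16 to 2.27. Fewer cells of a type and less RNA per cell cannot be told apart in these bulk leaf samples.

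More genes rose than fell after 1 day. In the edgeR quasi-likelihood test, 972 genes rose (4.34% of those tested) and 224 fell (1.00%) at an adjusted p under 0.05, so 81.3% of the calls were higher. In each of the 972 genes all 3 day 1 libraries lay above all 3 CK libraries, which held for 3914 of all tested genes (17.5%). In each of the 224 all 3 lay below, as in 3960 of all tested genes (17.7%). No called gene therefore rested on a day 1 library on the wrong side of the CK range, although the test and this count use the same values. An informative description was missing for 561 of the 972 and for 133 of the 224. The split of calls depends on the method, with 65.1% of calls higher in DESeq2, 60.2% in a limma voom fit with sample quality weights and 64.9% in limma on log2(FPKM + 1).

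The size of the change differed between the libraries, and library 2 was the most extreme. The median log2 difference from the CK mean of the 972 genes was 2.49 in day 1 library 1, 3.13 in library 2 and 2.46 in library 3. The largest change was in library 2 for 669 of the genes, in library 3 for 178 and in library 1 for 125. The smallest change was also in library 2 for 189 genes. The 3 day 1 libraries lay within 2-fold of each other for 408 of the 972, and over 4-fold apart for 241. Among the 224 lowered genes the medians were -1.35, -1.86 and -1.54, with 162 within 2-fold and 6 over 4-fold apart.

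**Figure D1:**
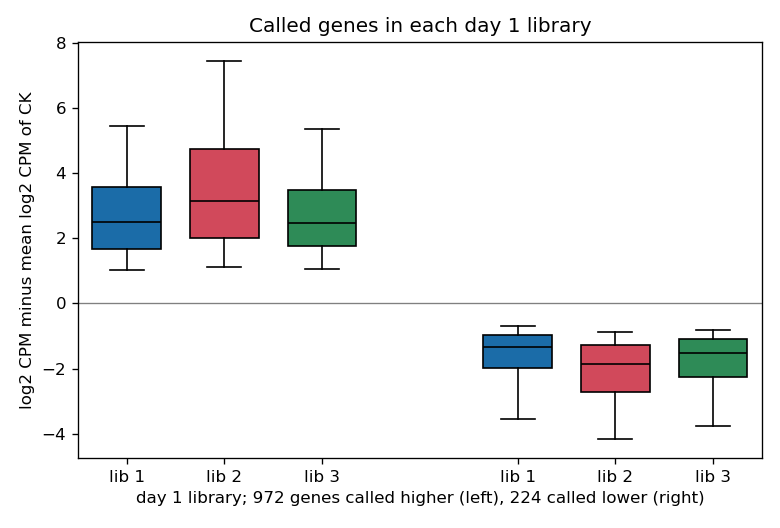
Box plots of the log2 CPM of called genes minus the mean log2 CPM of the 3 CK libraries (CPM, counts scaled for library size), for each day 1 library; boxes span the quartiles, the line is the median and whiskers reach the 5th and 95th percentiles. The medians of the genes called higher are 2.49, 3.13 and 2.46 in libraries 1, 2 and 3, and the upper whisker is longest for library 2.

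The calls depended more on the CK libraries than on day 1 library 2. Without day 1 library 2, 990 genes were higher and 203 lower, of which 780 and 125 were called in the full fit. Without CK library 1 the counts were 119 and 15, without CK library 2 they were 333 and 23, and without CK library 3 they were 130 and 12. Without day 1 library 1 they were 803 and 160, and without day 1 library 3 they were 730 and 66. A smaller set of 89 genes kept the call and its direction with each of the 6 libraries left out in turn, 83 of them higher (0.371% of tested genes) and 6 lower (0.0268%). The rule for this set uses the same contrast, so its members are described here without a further test.

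**Figure D2:**
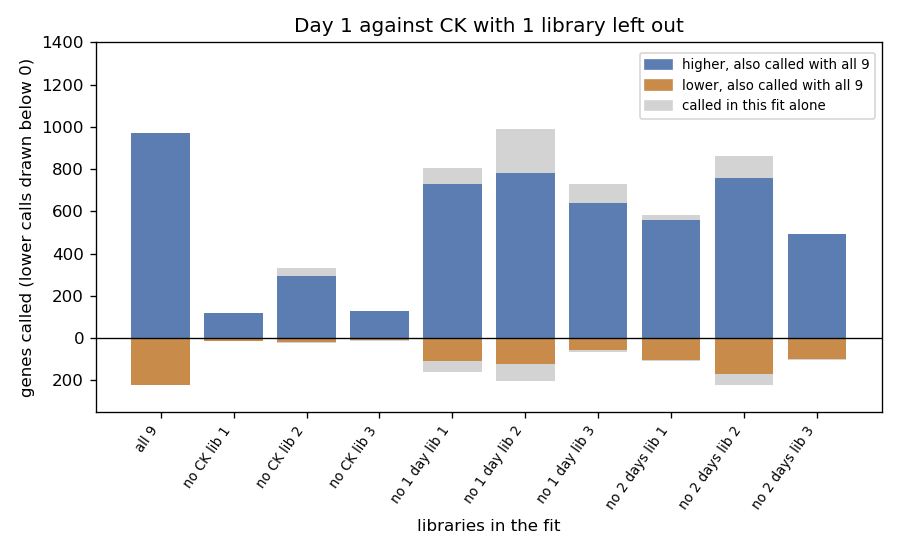
Number of genes called higher (above 0) and lower (below 0) in day 1 against CK with all 9 libraries and with each library left out, with genes also called in the full fit in colour and the others in grey. The counts fall furthest when a CK library is left out, to 119 higher genes without CK library 1 and 130 without CK library 3.

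The 83 stable genes that rose had similar levels in the 3 day 1 libraries, which the rule for the set favours. A call kept with each library left out needs a small spread, so this closeness is not a separate result. The same holds for the stable genes named below. The 3 day 1 libraries lay within 2-fold of each other for 63 of the 83 and over 4-fold apart for 0. The median log2 fold change was 3.14. An informative description was present for 38 of the 83.

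Signalling proteins made up part of that stable set. Calcium-dependent protein kinase 10, which turns calcium signals into phosphorylation (PchiChr2G047470, chromosome 2, block 1, 427313396 to 427323037), was at 23.6, 20.5 and 19.9 FPKM in CK libraries 1, 2 and 3 and at 93.8, 96.2 and 110 in day 1 libraries 1, 2 and 3. The groups did not overlap, and the day 1 libraries were close to each other. The increase on the log2 scale was 2.36 (SE 0.21, edgeR adjusted p = 0.00447). Respiratory burst oxidase protein 1, an NADPH oxidase that makes apoplastic superoxide (PchiChr3G092470, chromosome 3, block 1000000001, 318285012 to 318291726), was at 14.6, 13.6 and 16.3 FPKM in CK and at 77.0, 50.2 and 62.2 at day 1. Here library 2 was the lowest of the day 1 libraries and still above all CK libraries (log2 2.22, SE 0.22, edgeR adjusted p = 0.00587). A 14-3-3 protein, of a family that binds phosphorylated partners (PchiChr9G251110), went from 17.5, 19.5 and 12.2 to 149, 105 and 117 FPKM (log2 3.05, SE 0.33, edgeR adjusted p = 0.00705).

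Surface receptor kinases and ubiquitin ligases were also in the stable set. A G-type lectin kinase (PchiChr1G007020) was at 0.345, 0.362 and 0.157 FPKM in CK and at 5.97, 4.50 and 3.38 at day 1. A kinase named for HAIKU2, a regulator of seed size in Arabidopsis (PchiChr7G211050), was at 1.92, 2.38 and 2.39 FPKM in CK and at 9.90, 10.6 and 7.78 at day 1. In both genes the day 1 libraries were clear of CK, with log2 fold changes of 4.13 (SE 0.43) and 2.22 (SE 0.22) and edgeR adjusted p values of 0.00653 and 0.00587. An MLO homolog, of the membrane protein family known for mildew susceptibility in barley (PchiChr11G311390), was at 20.7, 25.8 and 21.5 FPKM in CK and at 144, 181 and 125 at day 1. U-box protein 9 (PchiChr12G335150), a putative ubiquitin ligase, was at 5.51, 4.28 and 2.05 FPKM in CK and at 27.5, 41.5 and 68.0 at day 1, and U-box protein 6 (PchiChr5G130000) went from 4.44 to 6.66 FPKM across CK to 23.4 to 39.0 across day 1. The edgeR adjusted p values of these 3 genes were 0.00526, 0.00718 and 0.00705.

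**Figure D3:**
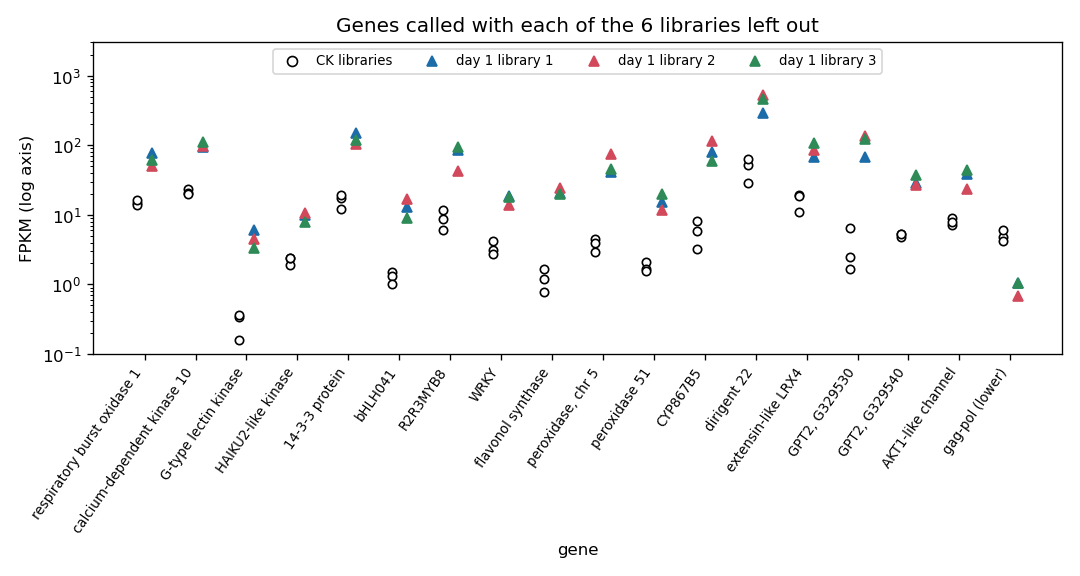
FPKM on a log axis of 18 genes called with each of the 6 libraries left out, with CK libraries as open circles and the 3 day 1 libraries as coloured triangles. The groups are separate in each gene, which the choice of genes favours, and day 1 library 2 is neither always the highest nor always the lowest.

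Transcription factors, a flavonol enzyme, peroxidases and a P450 were further members of the stable set. bHLH041 (PchiChr2G064150), a basic helix-loop-helix factor, was at 1.53, 1.31 and 1.00 FPKM in CK and at 13.1, 16.8 and 9.02 at day 1 (log2 3.50, SE 0.32, edgeR adjusted p = 0.00461). R2R3MYB8 (PchiChr5G142790), which the search pattern of the MYB list did not match, was at 8.78, 11.6 and 6.08 FPKM in CK and at 85.7, 42.8 and 94.6 at day 1. The flavonol synthase or flavanone 3-hydroxylase PchiChr11G311480, of the flavonol route, was at 1.19, 1.66 and 0.791 FPKM in CK and at 20.8, 24.5 and 19.6 at day 1, so its day 1 libraries agreed within a narrow range. Peroxidase PchiChr5G147320 went from 4.45, 3.98 and 2.94 to 41.7, 75.4 and 45 FPKM, and peroxidase 51 (PchiChr8G221830) from 2.09, 1.69 and 1.55 to 15.1, 11.8 and 20.2. Both belong to the secreted class III family that uses hydrogen peroxide at the wall. CYP867B5 (PchiChr3G088330), a cytochrome P450, was at 5.92, 8.19 and 3.28 FPKM in CK and at 81.0, 116 and 60.0 at day 1. The edgeR adjusted p values of the last 5 genes ran from 0.00253 for the flavonol synthase to 0.00700 for CYP867B5.

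Carriers and channels were also in the stable set. The genes described as glucose-6-phosphate/phosphate translocator 2, which carries glucose 6-phosphate into plastids, are neighbours on chromosome 12 in block 500000001. PchiChr12G329540 (24496546 to 24499739) was at 5.30, 4.88 and 5.38 FPKM in CK and at 28.5, 27.0 and 38.0 at day 1 (log2 2.71, SE 0.17, edgeR adjusted p = 0.00174). PchiChr12G329530 (24487660 to 24491026) was at 1.64, 6.42 and 2.48 FPKM in CK and at 67.4, 135 and 122 at day 1 (log2 5.08, SE 0.60, edgeR adjusted p = 0.00726). Both rose in every day 1 library, and since they share a name, reads of near-identical stretches could be split between them. They were picked out with their values in view. An AKT1-like potassium channel (PchiChr1G019190), of a family that takes up potassium, was at 7.16, 8.94 and 7.76 FPKM in CK and at 39.2, 23.6 and 44.1 at day 1.

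A few genes of the jasmonate pathway itself rose, to unequal heights in the day 1 libraries, and most members of its lists did not pass the test. MYC2a (PchiChr2G047860), of the MYC family of activators, was at 7.26, 9.90 and 5.2 FPKM in CK and at 28.9, 39.3 and 36.1 at day 1. TIFY 9 (PchiChr3G086840), of the JAZ repressor family, was at 7.67, 9.28 and 1.87 FPKM in CK and at 95.4, 728 and 192 at day 1. Lipoxygenase 1 (PchiChr2G052390), which oxygenates the fatty acid precursor, was at 0.590, 0.274 and 0.111 FPKM in CK and at 18.8, 226 and 11.8 at day 1. MYC2a was nearly even across the day 1 libraries, and library 2 was the highest in all of these genes. 12-Oxophytodienoate reductase 7 (PchiChr7G216060), which acts late in jasmonate synthesis, was at 0 counts in CK and at 1.01, 4.63 and 0.502 FPKM at day 1. Setting the CK group to 3 counts in all, the floor used here, put it at least 171-fold higher. Of the lists for synthesis (9 tested), perception and repression (15) and turnover (24), 2, 2 and 1 genes rose by edgeR and 0 fell. Over all tested genes 4.34% rose and 1.00% fell. At an unadjusted p under 0.05, 3, 6 and 7 genes of these lists were higher and 0, 0 and 2 lower. DESeq2 called 3, 6 and 6 of them higher and 0, 0 and 2 lower. MYC2a lost its call without CK library 1 (edgeR adjusted p = 0.0524), and the calls of TIFY 9, lipoxygenase 1 and the reductase ended without each CK library in turn (adjusted p = 0.0835 to 0.116). CYP94P7 (PchiChr9G254860), whose P450 family includes oxidases of jasmonate in Arabidopsis, was the turnover gene called, and its edgeR adjusted p reached 0.152 without CK library 3. The turnover list had 0 higher calls without CK library 1 or 3 and without day 1 library 2 or 3.

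WRKY factors, which bind defence gene promoters, rose most broadly among the lists of transcription factors. Of the 31 tested 13 rose and 0 fell by edgeR (4.34% and 1.00% of all genes), with 1 lower at an unadjusted p under 0.05 and 1 called lower by DESeq2. The median log2 fold change of the list was 2.16, beside 0.03 over all tested genes. Members above all CK libraries numbered 22 in day 1 library 1, 27 in library 2 and 24 in library 3. WRKY PchiChr9G253780 was at 3.08, 4.28 and 2.76 FPKM in CK and at 18.9, 13.9 and 18.1 at day 1. Its neighbour PchiChr9G253810 was at 0, 0.329 and 0.127 FPKM in CK and at 32.2, 77.7 and 12.2 at day 1. A WRKY 41 (PchiChr10G284800) went from 4.39, 11.2 and 3.76 to 116, 150 and 77.8 FPKM. The called genes of the list numbered 2, 5 and 1 without CK libraries 1, 2 and 3 and 11 to 12 without a day 1 library. PchiChr10G284800 lost its call without CK library 1 (edgeR adjusted p = 0.0557), and without CK library 3 it lay at the threshold. PchiChr9G253810 had an edgeR adjusted p of 0.0833 without CK library 3.

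The AP2/ERF family, known from ethylene and stress signalling, had similar list values in the 3 libraries, and single genes differed. Of 62 tested 13 rose and 1 fell (4.34% and 1.00% of all tested genes), with a list median of 1.69 on the log2 scale. Members above all CK libraries numbered 40, 41 and 32 in day 1 libraries 1, 2 and 3, with median log2 differences from the CK mean of 1.36, 1.30 and 0.93. The called genes numbered 0, 4 and 1 without the CK libraries 1, 2 and 3, and 4, 15 and 5 without day 1 libraries 1, 2 and 3. A TINY-type factor (PchiChr12G324200) was at 0.874, 1.81 and 0.390 FPKM in CK and at 20.3, 53.7 and 15 at day 1. Ethylene response factor 11 (PchiChr1G024820) was at 0.0773, 0.573 and 0.0422 FPKM in CK and at 21.1, 219 and 5.58 at day 1, a wide range in which every day 1 library was still above CK. Its call ended without any CK library or day 1 library 1 or 2 (edgeR adjusted p = 0.0583 to 0.169). An ethylene-responsive factor 5 (PchiChr7G218210) had the reverse order, at 6.23, 9.11 and 4.78 FPKM in CK and at 94.7, 13.7 and 77.8 at day 1, and transcription factor AP2 (PchiChr11G312450) was at 67.3, 11.6 and 141 at day 1 against 2.95 to 10.3 in CK. These last genes were picked out with their values in view. The AP2/B3-like factor PchiChr12G329690 fell from 11.1, 9.76 and 11.7 FPKM to 1.39, 0.817 and 2.25 (log2 -2.75, SE 0.40, edgeR adjusted p = 0.0115), and its adjusted p was 0.0571 without CK library 1 and 0.0557 without CK library 3.

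Other transcription factor families had fewer calls. Among bHLH factors 4 of 26 rose, among MYB factors 2 of 40 and among NAC factors 2 of 26. In the list of zinc finger, bZIP, homeobox and LOB factors 7 of 161 rose and 1 fell. In that list and among MYB factors the share that rose was near the 4.34% of all tested genes. In the GRAS and heat shock factor list 1 of 14 rose, heat stress factor B-2b-like (PchiChr7G194490, 4.05 to 5.51 FPKM in CK and 9.95 to 16.5 at day 1). The search pattern of that list missed SCL11, a GRAS factor by name that fell and is given below. It also missed a nodulation-signaling pathway 2 protein (PchiChr3G076450) that fell. That gene had 510 counts over CK and 0 at day 1, at least 150-fold lower over the floor of 3 counts. MYB12 (PchiChr3G071180), which in Arabidopsis switches on flavonol genes, was at 1.40, 1.77 and 0.633 FPKM in CK and at 23.3, 35.3 and 11.5 at day 1. ODORANT1 (PchiChr12G333060), a MYB named for a petunia regulator of scent, was at 12.5, 9.58 and 3.34 FPKM in CK and at 50.9, 122 and 62.6 at day 1. NAC 25 (PchiChr9G263680) was at 0.0932, 0.113 and 0 FPKM in CK and at 2.19, 7.49 and 2.93 at day 1. The LOB domain gene PchiChr12G332810 stayed called with any library left out and went from 3.92, 3.31 and 1.43 to 18.0, 12.4 and 20.5 FPKM. The calls of MYB12, ODORANT1, NAC 25 and the heat stress factor ended without CK library 1 (edgeR adjusted p = 0.0628, 0.0785, 0.109 and 0.110). Higher calls of the MYB list numbered 0, 1 and 0 without CK libraries 1, 2 and 3, and those of the NAC list 0 without each. The GRAS and heat shock factor list had 0 higher calls without each CK library and without day 1 library 1 or 3.

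The wider lists of signalling proteins held calls in both directions. Of 419 receptor-like kinases 32 rose and 8 fell (4.34% and 1.00% of all tested genes), and the called higher members numbered 8, 11 and 6 without CK libraries 1, 2 and 3. The family had calls in both directions, and its members above all CK libraries numbered 163, 139 and 158 in day 1 libraries 1, 2 and 3. Of 68 calcium signalling genes 9 rose, including glutamate receptor 3.5-like (PchiChr6G189350, a calcium-permeable channel, at 0.633 to 1.91 FPKM in CK and 7.20 to 9.91 at day 1) and 5 genes described as calmodulin-like or calmodulin-binding. None fell by edgeR, with 1 lower at an unadjusted p under 0.05 and 0 by DESeq2. Of 11 MAP kinase genes 3 rose, each named for a kinase at the top of that cascade. The largest change was in PchiChr9G272150, at 0.166, 0.191 and 0 FPKM in CK and at 2.93, 29.1 and 4.23 at day 1, whose edgeR adjusted p was 0.0833 to 0.129 without a CK library. Of 267 U-box and F-box genes 12 rose and 7 fell, and the share that rose was near that of all genes.

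Intracellular resistance receptors had calls at a rate near that of all genes. Of 133 NLR and TIR genes 7 rose and 0 fell by edgeR (4.34% and 1.00% of all tested genes), with 7 lower at an unadjusted p under 0.05 and 6 lower by DESeq2. PchiChr1G002830, a truncated TIR-NBS-LRR protein, was at 7.60, 10.1 and 7.43 FPKM in CK and at 20.3, 18.9 and 24.2 at day 1 (log2 1.46, SE 0.22, edgeR adjusted p = 0.0136). PchiChr7G196470 was at 5.54, 3.27 and 3.57 FPKM in CK and at 14.8, 9.46 and 21.0 at day 1 (log2 1.99, SE 0.29, edgeR adjusted p = 0.0117). Without CK library 3 their edgeR adjusted p values were 0.0729 and 0.0654. The median log2 difference of the list from the CK mean was 0.49, -0.72 and 0.25 in day 1 libraries 1, 2 and 3. In library 2, 56 of the 133 (42.1%) lay below all CK libraries, against 15 (11.3%) in library 1 and 31 (23.3%) in library 3. Of all tested genes 41.9% lay below in library 2, 30.4% in library 1 and 33.9% in library 3. The library 2 share was thus near that of all genes. Called higher members numbered 1, 1 and 0 without CK libraries 1, 2 and 3.

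**Figure D4:**
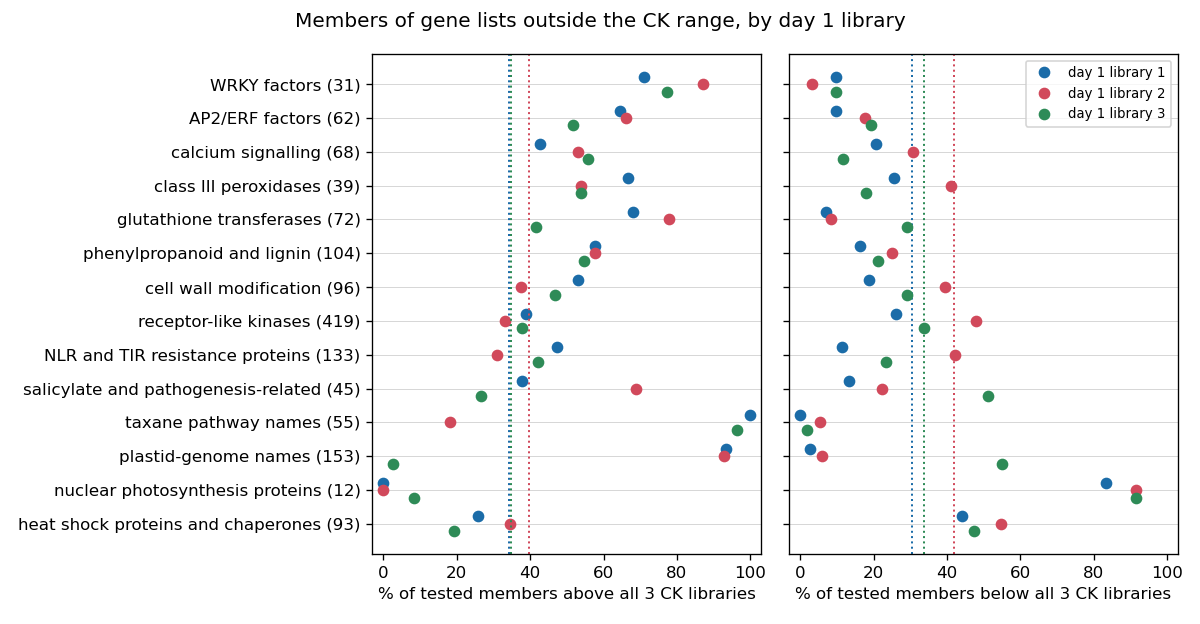
Percentage of the tested members of 14 gene lists (number tested in brackets) that lay above (left) or below (right) all 3 CK libraries in each day 1 library, with dotted lines for the same percentage over all 22384 tested genes. WRKY factors lie right of the dotted lines in all 3 libraries, taxane names in libraries 1 and 3, and plastid-genome names in libraries 1 and 2.

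Class III peroxidases rose as a neighbouring group on chromosome 5. Of 39 tested 9 rose and 0 fell by edgeR (4.34% and 1.00% of all tested genes). Lower members numbered 2 at an unadjusted p under 0.05 and 1 by DESeq2. Of the 9 that rose, 7 lie between PchiChr5G147270 and PchiChr5G147420. Peroxidase PchiChr5G147290 was at 0.308, 0.625 and 0.284 FPKM in CK and at 15, 35.7 and 2.75 at day 1. PchiChr5G147420 was at 0 counts in CK while the day 1 libraries held 5.17, 2.75 and 0.429 FPKM, which is at least 253-fold higher over that floor. PchiChr5G147300 had 1 count over the CK group and was 641-fold higher, with a counting interval of 115 to 25350. Its level was 2.39, 15.3 and 0.964 FPKM in the day 1 libraries, and its edgeR adjusted p was 0.0813 to 0.0966 without a CK library. In these 3 genes library 3 had the lowest day 1 level, and copies this close may share reads. Called peroxidases numbered 2, 3 and 2 without the CK libraries.

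Glutathione transferases, which attach glutathione to reactive molecules, rose in part and were least raised in library 3. Of 72 tested 7 rose and 0 fell by edgeR (4.34% and 1.00% of all tested genes). Lower members numbered 1 at an unadjusted p under 0.05 and 1 by DESeq2. Of the 7 that rose, 5 lie between PchiChr5G128190 and PchiChr5G128240 on chromosome 5. PchiChr5G128230 was at 1.90, 2.97 and 1.10 FPKM in CK and at 45.4, 165 and 54.0 at day 1. PchiChr5G128190 was at 17.7, 22.8 and 31.0 FPKM in CK and at 203, 191 and 138 at day 1. The edgeR adjusted p of both was 0.0535 without CK library 1. Members above all CK libraries numbered 49 in library 1, 56 in library 2 and 30 in library 3, and 21 members lay below CK in library 3. The list median of 1.39 became 0.52 without day 1 library 2. In the list of antioxidant enzymes and NADPH oxidases 2 of 38 rose, both respiratory burst oxidases, the second being PchiChr10G285320 at 9.39, 4.79 and 4.73 FPKM in CK and at 25.0, 22.2 and 30.6 at day 1 (edgeR adjusted p = 0.0176, and 0.0792 without CK library 3). No germin-like gene of 11 passed by edgeR, with 3 higher and 1 lower at an unadjusted p under 0.05 and 3 higher by DESeq2. The lowest adjusted p among them was that of PchiChr4G101030 (0.0848), at 0 to 0.0350 FPKM in CK and 0.101 to 2.58 at day 1.

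In the phenylpropanoid and lignin list edgeR calls were near the 4.34% of all tested genes, though the list as a whole lay higher. Of 104 genes 5 rose and 2 fell. The 5 were all described as dirigent proteins, which guide the coupling of monolignols into lignans. At an unadjusted p under 0.05, 37 were higher and 4 lower, and DESeq2 called 31 higher and 3 lower. The list median was 0.96 on the log2 scale, beside 0.03 over all tested genes. Members above all CK libraries made up 57.7%, 57.7% and 54.8% in day 1 libraries 1, 2 and 3, against 34.2%, 39.8% and 34.7% of all tested genes. Dirigent protein 22 PchiChr2G041200 was at 51.4, 63.7 and 29.1 FPKM in CK and at 294, 532 and 458 at day 1, and its neighbour PchiChr2G041180 went from 5.31, 10.8 and 4.07 to 59.6, 188 and 55.9. The genes that fell were another dirigent-like protein (PchiChr4G098130, 2.04 to 3.37 FPKM in CK and 0.449 to 0.501 at day 1) and a shikimate O-hydroxycinnamoyltransferase of lignin synthesis (PchiChr11G306560, 26.1, 43.4 and 32.4 FPKM in CK and 10.5, 9.30 and 12.9 at day 1). The call of the transferase ended with any library of the 6 left out (edgeR adjusted p = 0.0632 to 0.104), and that of PchiChr2G041180 without CK library 1 or 3 (0.0875 and 0.0773). Without day 1 library 3 the list had 11 higher genes. In the flavonoid list 1 of 19 rose and 1 fell, leucoanthocyanidin reductase (PchiChr6G169620, 2.80, 2.67 and 9.30 FPKM in CK and 0.298, 0.506 and 0.592 at day 1), whose edgeR adjusted p was 0.0578 to 0.102 with a library left out. Among 62 glycosyltransferases 5 rose and 0 fell by edgeR (3 lower at an unadjusted p under 0.05, 0 by DESeq2).

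Some genes of cell wall building rose. Of 96 tested 8 rose and 0 fell by edgeR (4.34% and 1.00% of all tested genes). Lower members numbered 4 at an unadjusted p under 0.05 and 2 by DESeq2. Of the 8 that rose, 3 belong to the stable set. Leucine-rich repeat extensin 4 (PchiChr1G007810), a wall-anchored receptor of peptides, was at 19.3, 18.4 and 11.2 FPKM in CK and at 67.5, 86.3 and 108 at day 1. COBRA-like protein 10 (PchiChr3G071500), whose family helps to orient cellulose, was at 3.15, 6.12 and 1.67 FPKM in CK and at 50.8, 57.8 and 83.4 at day 1. An extensin-like protein (PchiChr5G133080) was at 53.8, 50.4 and 57.8 FPKM in CK and at 258, 152 and 336 at day 1. Cellulose synthase 3 (PchiChr4G112470) was at 9.29 to 11.9 FPKM in CK and at 44.6, 15.7 and 56.6 at day 1, with library 2 lowest in this gene and in the extensin-like one. Without day 1 library 2 the list had 12 higher genes, and without CK libraries 1, 2 and 3 it had 3, 5 and 3.

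Cytochromes P450, which oxidise many defence compounds, had calls in both directions. Of 319 tested 32 rose and 6 fell (4.34% and 1.00% of all tested genes), and the higher ones numbered 1, 3 and 2 without CK libraries 1, 2 and 3 and 21 to 30 without a day 1 library. CYP725A9 (PchiChr11G315740), of the family that holds the known taxane hydroxylases, was at 0.863, 1.02 and 1.43 FPKM in CK and at 8.69, 3.93 and 4.77 at day 1 (log2 2.51, SE 0.37, edgeR adjusted p = 0.0125). Its adjusted p was 0.0654 without CK library 1 and 0.0552 without CK library 2. Among P450 genes that fell, P450 90D2, named for brassinosteroid synthesis (PchiChr10G295310), was at 5.35, 7.61 and 4.88 FPKM in CK and at 1.73, 0.516 and 1.09 at day 1. P450 86B1-like (PchiChr5G136810), named for fatty acid oxidation of suberin, was at 4.29, 7.64 and 3.10 FPKM in CK and at 1.10, 0.521 and 0.960 at day 1. The calls of both ended without each CK library and without day 1 library 3 (edgeR adjusted p = 0.0557 to 0.0922).

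Taxane genes were high in day 1 libraries 1 and 3 and not in library 2. Of the 55 tested genes named for taxane synthesis, 55 lay above all CK libraries in library 1 and 53 in library 3, against 10 in library 2. The background was 34.2%, 34.7% and 39.8% of all genes. The summed level of the list, here and below taken over all its genes in the table whether tested or not, was 33.8, 290 and 34.9 FPKM in CK libraries 1, 2 and 3 and 1786, 288 and 5432 FPKM in day 1 libraries 1, 2 and 3. Day 1 library 2 was thus near CK library 2 in this sum, but not gene by gene. Of the 62 genes in the table, 6 were at 0 counts in CK library 2 and 27 in day 1 library 2. In the sum, CK library 2 was itself above the other CK libraries, where 45 and 50 genes were at 0 counts. What sets either library 2 apart was not tested. In the median gene of the list, the log2 difference from the CK mean was 6.61 in library 1, -0.42 in library 2 and 8.37 in library 3. Of the 55 tested genes 2 were called, both higher, where 4.34% of all tested genes rose. The 10-deacetylbaccatin III 10-O-acetyltransferase PchiChr11G300670, which makes baccatin III, was at 0.374, 0.392 and 0.386 FPKM in CK and at 11, 35.3 and 10.2 at day 1, and the 3'-N-debenzoyltaxol N-benzoyltransferase PchiChr4G123700 was at 10.3, 7.21 and 9.82 FPKM in CK and at 27.2, 96.9 and 39.4 at day 1. Both were highest in library 2, unlike the sum of the list. The call of the first ended without each CK library (edgeR adjusted p = 0.0602 to 0.0775), and that of the second without each CK library and without day 1 library 2 or 3 (0.0571 to 0.148).

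Precursor and terpene genes had few calls, where 4.34% of all tested genes rose and 1.00% fell. In the list for the mevalonate and MEP routes and prenyl synthases 1 of 30 rose, a 3-hydroxy-3-methylglutaryl-CoA reductase (PchiChr10G292440) at 12.9, 10.8 and 10.6 FPKM in CK and 32.8, 71.1 and 30.5 at day 1, whose edgeR adjusted p was 0.0519 to 0.159 with a library left out. No terpene synthase of 21 passed by edgeR, with 2 at an unadjusted p under 0.05 and 2 by DESeq2. A copalyl diphosphate synthase (PchiChr7G201060), of diterpene synthesis, came nearest at 2.45, 4.59 and 3.31 FPKM in CK and 17.2, 22.2 and 6.45 at day 1 (edgeR adjusted p = 0.0564). Among 81 acyltransferases 1 rose and 1 fell, and among 115 ABC, MATE and NPF transporters 3 rose and 0 fell by edgeR (10 lower at an unadjusted p under 0.05 and 6 by DESeq2). ABC transporter PchiChr12G335810 was at 5.98, 7.02 and 3.42 FPKM in CK and at 95.6, 344 and 116 at day 1 (log2 5.27, SE 0.74, edgeR adjusted p = 0.0108). Its neighbour PchiChr12G335800 was at 0.220, 0.518 and 0.0961 FPKM in CK and at 1.93, 1.41 and 3.50 at day 1. Their adjusted p values were 0.0658 and 0.122 without CK library 1.

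**Figure D5:**
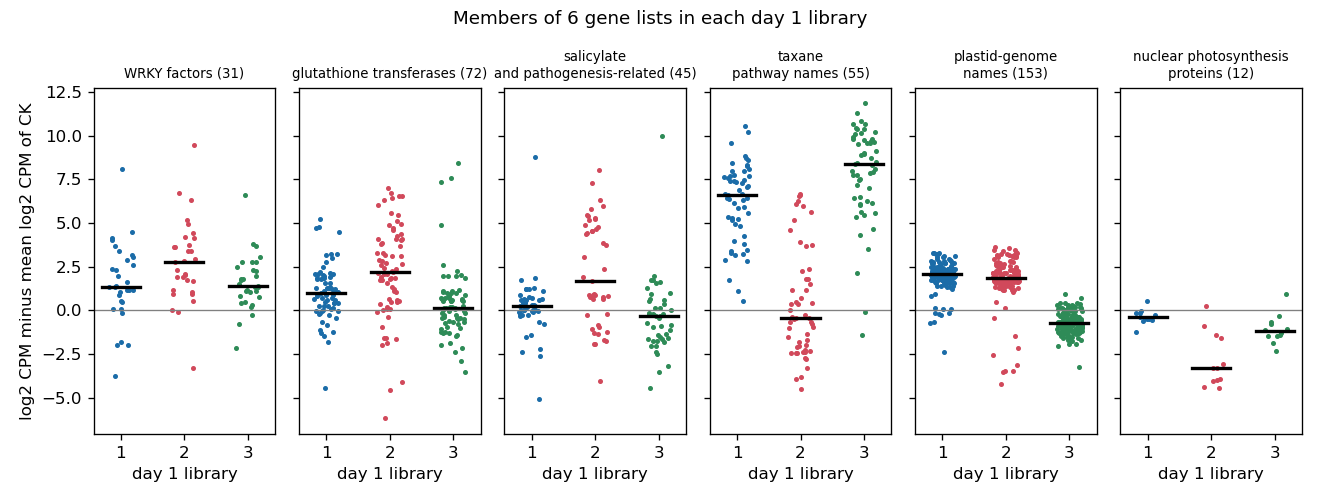
Each tested member of 6 gene lists as a dot, in each day 1 library, as log2 CPM minus the mean log2 CPM of the 3 CK libraries, with the median as a bar and the number of members in brackets. The medians of the taxane list are 6.61, -0.42 and 8.37 in libraries 1, 2 and 3, and those of the plastid-genome names 2.08, 1.87 and -0.74.

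Genes that departed from CK in only some of the day 1 libraries were mostly tied to library 2. Among 14492 tested genes that reached 5 FPKM in a library of the 6, 74 were at least 4-fold above all CK libraries in library 2 alone, with libraries 1 and 3 within the CK range. Another 95 were at least 4-fold below in library 2 alone. In 101 genes libraries 1 and 3 were at least 4-fold above CK while library 2 lay within the CK range. The same 3 counts were 7, 1 and 5 for library 1 and 1, 4 and 15 for library 3. No gene of these patterns was called by edgeR. At an unadjusted p under 0.05 the counts for library 2 were 28, 0 and 32, and DESeq2 called 3, 0 and 31 of them.

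Defence proteins and beta-glucosidases led the genes that were high in library 2 alone. An acidic thaumatin-like protein, of the PR-5 family (PchiChr8G224580, chromosome 8, block 1, 100032194 to 100033299), was at 29.2, 23.7 and 3.65 FPKM in CK and at 4.68, 3091 and 4.49 at day 1. A PR-4 protein (PchiChr10G280210) was at 346, 56.9 and 162 FPKM in CK and at 117, 2644 and 75.2 at day 1. Beta-glucosidase 1 (PchiChr3G070240) was at 1.99, 0.465 and 2.26 FPKM in CK and at 2.00, 1282 and 1.61 at day 1, and another beta-glucosidase (PchiChr3G071860) at 1042 in library 2 against 135 to 232 in the other 5 libraries. In each gene the other day 1 libraries stayed within the CK range, and edgeR adjusted p values were 0.143 to 0.360. A UDP-glycosyltransferase UGT85A (PchiChr11G317360) was the reverse, at 410 to 1087 FPKM in CK and at 569, 23.2 and 574 at day 1. The MEP pathway enzyme 4-hydroxy-3-methylbut-2-en-1-yl diphosphate synthase (PchiChr10G276860) was at 56.2 to 228 FPKM in CK and at 99.1, 8.67 and 87.7 at day 1. Bark protein-like genes PchiChr10G280270 and PchiChr10G280290, named for nitrogen storage proteins of bark, were at 38.7 to 223 and 64.6 to 206 FPKM in CK and at 1.99 and 3.64 in library 2.

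Of the 101 genes high in libraries 1 and 3 and within the CK range in library 2, 29 carry taxane names, 9 are P450 genes and 27 lie on chromosome 11. Among all 22384 tested genes these groups held 55, 319 and 1497. The 101 genes came only from the 14492 that reached 5 FPKM. Group sizes within those were not counted, so the shares cannot be compared directly. Taxane 13-alpha-hydroxylase PchiChr11G297900 (chromosome 11, block 1, 18130279 to 18132208) was at 0, 40.2 and 0 FPKM in CK and at 287, 0.463 and 640 at day 1. A limonene or borneol synthase of monoterpene synthesis (PchiChr4G105940) was at 0, 82.3 and 0.687 FPKM in CK and at 368, 0.0304 and 1588 at day 1. A caffeic acid methyltransferase (PchiChr4G117930) and a carbonic anhydrase 7 (PchiChr5G129430) had the same order, at 4.03 and 82.0 FPKM in library 2 and 233 to 681 and 722 to 1753 FPKM in the other day 1 libraries. In all 4 genes CK library 2 was the highest CK library, at 34.5 to 125 FPKM, and library 2 of day 1 lay below it.

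Genes named for salicylate responses and pathogenesis-related proteins followed library 2. Of 45 tested 0 were called by edgeR, with 10 at an unadjusted p under 0.05, all higher, and 5 by DESeq2. Members above all CK libraries numbered 17, 31 and 12 in libraries 1, 2 and 3, and members below numbered 6, 10 and 23. The summed level was 536 to 934 FPKM in CK and 727, 10830 and 709 FPKM in day 1 libraries 1, 2 and 3. The list median of 1.15 on the log2 scale became -0.06 without day 1 library 2. PR10 protein PchiChr3G077230 had the lowest adjusted p, at 26.7, 32.2 and 32.1 FPKM in CK and 91.2, 658 and 72.7 at day 1 (edgeR adjusted p = 0.0670), and its 3 day 1 libraries were above CK. Over all tested genes, 4.34% rose and 1.00% fell by edgeR. Of 19 chitinases and glucanases 2 rose and 0 fell by edgeR (2 lower at an unadjusted p under 0.05 and 1 by DESeq2). The stable one, PchiChr6G178690, went from 17.2, 19.3 and 12.6 to 120, 79.8 and 69.4 FPKM, and chitinase A (PchiChr4G105200) from 0.277, 1.22 and 0.417 to 8.99, 84.7 and 4.96, with an edgeR adjusted p of 0.0936 to 0.161 without a CK library. A Kunitz protease inhibitor (PchiChr10G289250) was at 0, 0.785 and 0 FPKM in CK and 20.6, 24.8 and 24.6 at day 1, and did not pass (edgeR adjusted p = 0.0550). It was the lowest of the 3 tested protease inhibitors, of which 1 was under 0.05 unadjusted and 1 called by DESeq2.

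Ethylene and other hormone genes added a few calls, where 4.34% of all tested genes rose and 1.00% fell. An ACC oxidase (PchiChr8G225290), which makes ethylene, was at 8.03, 6.83 and 9.95 FPKM in CK and at 58.2, 2205 and 76.9 at day 1, and CTR1 (PchiChr12G331150), a kinase that holds back ethylene signalling, fell from 3.56, 3.42 and 3.20 FPKM to 1.51, 0.773 and 1.26. These were the genes called of 20. The search pattern of this list did not match an ethylene-forming enzyme (PchiChr8G230600) that rose and is given below. Of 35 abscisic acid genes 4 rose, 3 of them protein phosphatases 2C, of the family that holds the hormone's co-receptors, and 0 fell by edgeR (1 lower at an unadjusted p under 0.05, 0 by DESeq2). Phosphatase 2C 27 (PchiChr5G137870) was at 49.9, 47.8 and 33.4 FPKM in CK and at 121, 271 and 124 at day 1. Auxin response factor 16 (PchiChr10G278660) was at 8.72, 7.82 and 6.75 FPKM in CK and at 17.2, 26.5 and 15.3 at day 1, and it was with an auxin-induced-like gene (PchiChr2G048980, 18.0 to 27.4 FPKM in CK and 118, 328 and 141 at day 1) 1 of 2 called among 45. A two-component response regulator of cytokinin signalling (PchiChr12G332590) fell, at 6.66, 6.18 and 6.08 FPKM in CK and 2.30, 1.87 and 2.68 at day 1, the gene called of 25. No gibberellin gene of 7 passed by edgeR (1 at an unadjusted p under 0.05 and 1 by DESeq2), and the lowest adjusted p was 0.175 for PchiChr6G172170. Each call of the lists in this paragraph ended without each CK library (edgeR adjusted p = 0.0592 to 0.165).

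Plastid and photosynthesis genes differed between libraries in a way of their own. Of 12 nuclear photosynthesis genes 10, 11 and 11 lay below all CK libraries in day 1 libraries 1, 2 and 3, where 30.4%, 41.9% and 33.9% of all genes did. Their summed level was 10220 to 12640 FPKM in CK and 7591, 924 and 4304 FPKM at day 1. None was called by edgeR, with 1 at an unadjusted p under 0.05 and 1 by DESeq2. The chlorophyll a-b binding protein named above was at 505, 70.8 and 242 FPKM at day 1 (edgeR adjusted p = 0.180). The chlorophyll genes were similar, with summed levels of 1038 to 1278 FPKM in CK and 765, 178 and 542 FPKM at day 1. Of the 8 tested 0 were called by edgeR, with 1 higher and 1 lower at an unadjusted p under 0.05 and 1 higher by DESeq2. Pheophytinase (PchiChr11G311680), which acts in chlorophyll breakdown, had the lowest adjusted p of them (0.104), at 14.6 to 16.1 FPKM in CK and 18.9, 31.0 and 19.9 at day 1.

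Genes with names of the plastid genome split by library in another order. The table lists 416 such genes, of which 153 were tested. Of these, 143 lay above all CK libraries in day 1 library 1 and 142 in library 2, against 4 in library 3, where 84 lay below. Their median log2 difference from the CK mean was 2.08, 1.87 and -0.74 in the 3 libraries. Of the 416 genes, 133, 132 and 57 were at 0 counts in CK libraries 1, 2 and 3, while the day 1 libraries had 22, 24 and 137 such genes. None was called by edgeR, with 15 higher and 1 lower at an unadjusted p under 0.05, and DESeq2 called 2 higher and 1 lower. The summed level of the 416 went the other way in libraries 1 and 2, at 3374, 4154 and 4015 FPKM in CK and 2975, 528 and 1736 at day 1. NdhH (PchiChr11G302010), a subunit of the plastid NADH dehydrogenase-like complex, came nearest to the threshold (edgeR adjusted p = 0.0626), at 1.81, 1.56 and 0.441 FPKM in CK and 0.124, 0.0588 and 0.233 at day 1. Near-identical copies of such genes may share reads.

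Plastid proteases and small heat shock proteins were among the genes that fell. FTSH 2 (PchiChr10G282200), a thylakoid protease known for repair of photosystem II, was at 58.0, 132 and 82.4 FPKM in CK and at 11.8, 1.54 and 6.47 at day 1 (log2 -3.68, SE 0.73, edgeR adjusted p = 0.0305). Library 2 was the lowest of the day 1 libraries. The call ended without each CK library and without day 1 library 3 (edgeR adjusted p = 0.0755 to 0.0891). Of 28 genes for FtsH, Deg and Clp proteases 3 fell and 1 rose, a ClpA/B family gene (PchiChr12G335660, 1.73 to 2.75 FPKM in CK and 4.22 to 6.40 at day 1). In the list of 93 chaperones and heat shock proteins 4 fell and 0 rose by edgeR (1.00% and 4.34% of all tested genes). At an unadjusted p under 0.05, 18 were lower and 10 higher, and DESeq2 called 10 lower and 5 higher. The 16.9 kDa class I heat shock protein PchiChr7G193160, of the small chaperones that hold unfolded proteins, was at 34.9, 63.8 and 67.4 FPKM in CK and at 10.9, 6.0 and 5.26 at day 1. The low molecular weight heat-shock protein PchiChr8G227500 was at 59.7, 102 and 147 FPKM in CK and at 17.7, 10.9 and 10.8 at day 1. Both kept their call with any library but CK library 3 left out (edgeR adjusted p = 0.0550 and 0.0545 without it). The mitochondrial heat shock 70 kDa protein PchiChr6G166600 was at 22.8, 22 and 22.2 FPKM in CK and at 11.5, 9.13 and 10.7 at day 1, a small and even difference (log2 -0.97, SE 0.14, edgeR adjusted p = 0.0110).

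Other genes that fell had unlike names, each named here for the size of its change. In the lists matched by name 0 of 34 cutin and wax genes and 0 of 45 auxin genes fell by edgeR. Lower members numbered 7 and 3 at an unadjusted p under 0.05, and 4 and 2 by DESeq2. The deposited KEGG pathway of cutin, suberine and wax differed from the list, with 6 of 70 genes lower and 1 higher. Long chain acyl-CoA synthetase 1 (PchiChr9G272050), of wax and cutin synthesis in Arabidopsis, was at 55.6, 86.9 and 41.5 FPKM in CK and at 13.2, 11.6 and 10.2 at day 1. PIN2 (PchiChr7G212460), named for an auxin efflux carrier, was at 6.62, 7.91 and 5.60 FPKM in CK and at 1.84, 0.420 and 1.53 at day 1. The ubiquitin ligase MIEL1 (PchiChr4G102480), which acts on MYB proteins in Arabidopsis, was at 10.3, 9.85 and 15.3 FPKM in CK and at 2.01, 2.44 and 1.82 at day 1. SCL11 (PchiChr7G192320), a GRAS factor by name, was at 5.54, 6.55 and 7.27 FPKM in CK and at 0.886, 1.64 and 0.603 at day 1. CASP-like protein 1U1 (PchiChr1G028440), of a membrane protein family, was at 7.75, 12.1 and 8.79 FPKM in CK and at 0.408, 0.102 and 1.01 at day 1. The calls of LACS1 and the CASP-like gene ended with any of the 6 libraries left out, and those of the other 3 without each CK library (edgeR adjusted p = 0.0516 to 0.130 over the 5 genes). Lowered genes that stayed called with any library left out had few names. A gag-pol polyprotein of a mobile element (PchiChr1G010090) was at 4.86, 4.19 and 6.11 FPKM in CK and at 1.03, 0.684 and 1.05 at day 1, and PchiChr1G005460, an uncharacterised gene, was at 16.8, 17.0 and 17.4 FPKM in CK and at 1.87, 2.14 and 1.05.

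The named genes with the largest increases were mostly near 0 in CK. A putative subunit of chromatin assembly factor 1 (PchiChr6G170800) had 0 counts in CK and reached 8.38, 7.30 and 5.68 FPKM in the day 1 libraries. It was thus at least 290-fold higher and stayed called with any library left out. A phytosulfokine peptide precursor (PchiChr11G301720), of a secreted growth peptide, had 2 counts over CK and was 343-fold higher with a counting interval of 94.4 to 2835, at 5.84, 7.78 and 2.63 FPKM in the day 1 libraries. An ethylene-forming enzyme (PchiChr8G230600) was at 0, 0.0825 and 0.0710 FPKM in CK and at 8.63, 11.6 and 5.17 at day 1. An EGF domain-specific O-linked N-acetylglucosamine transferase (PchiChr6G182590) was at 0.0383, 0.103 and 0 FPKM in CK and at 7.37, 8.14 and 4.95 at day 1. The chromatin factor and the transferase lay within 2-fold across the day 1 libraries, and the other two were further apart, lowest in library 3. Wall-associated receptor kinase 2 (PchiChr1G030710) was not, at 0.310, 0.0420 and 0.346 FPKM in CK and at 6.65, 96.2 and 6.99 at day 1, nor was a putative oxidoreductase (PchiChr4G119130), at 0.145, 0.394 and 0.158 FPKM in CK and 3.26, 62.8 and 2.95 at day 1. Acyl-activating enzyme 5 (PchiChr7G213780), named for a peroxisomal enzyme, went from 0.297, 0.662 and 0.154 to 14.4, 74.4 and 31.1 FPKM. The edgeR adjusted p without CK library 3 was 0.0588 for the peptide precursor, 0.0589 for the ethylene-forming enzyme, 0.107 for the kinase, 0.164 for the oxidoreductase and 0.129 for the acyl-activating enzyme, and it was 0.0801 for the transferase without CK library 1.

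Starch, transport and growth genes added single calls. Of 37 starch and sugar genes 4 rose and 0 fell by edgeR (4.34% and 1.00% of all tested genes). Lower members numbered 2 at an unadjusted p under 0.05 and 1 by DESeq2. Beta-amylase 3 (PchiChr7G193930), which breaks starch down in chloroplasts, was at 7.08, 16.4 and 10.3 FPKM in CK and at 153, 49.3 and 308 at day 1, with library 2 lowest. Trehalose-6-phosphate synthase (PchiChr8G225010), which makes a sugar signal, was at 5.55, 6.80 and 1.94 FPKM in CK and at 34.8, 50.0 and 13.6 at day 1. Their edgeR adjusted p values were 0.0862 and 0.107 without CK library 3. Higher calls of the starch and sugar list numbered 0, 1 and 0 without CK libraries 1, 2 and 3. They numbered 1, 1 and 2 without day 1 libraries 1, 2 and 3. Of 78 transporters of sugars, amino acids and ions 4 rose and 1 fell, and of 34 cutin and wax genes 1 rose and 0 fell by edgeR (7 lower at an unadjusted p under 0.05 and 4 by DESeq2). The one that rose, 3-ketoacyl-CoA synthase 11-like (PchiChr1G003330), of fatty acid elongation, was at 8.40, 4.72 and 4.25 FPKM in CK and at 19.9, 76.7 and 45.8 at day 1, with an edgeR adjusted p of 0.0607 to 0.0833 without a CK library. Of 126 cell cycle and histone genes 2 rose and 3 fell, of 60 ribosomal proteins 1 rose and 0 fell (1 lower at an unadjusted p under 0.05 and 0 by DESeq2), and of 6 late embryogenesis genes 1 rose. Of 25 senescence and autophagy genes 0 passed by edgeR, with 3 higher and 3 lower at an unadjusted p under 0.05 and 1 each way by DESeq2, and autophagy-related protein 2 (PchiChr5G149110) came nearest (edgeR adjusted p = 0.0734).

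By the deposited KEGG annotation, calls in pathogen and hormone pathways were mostly higher, described here by counts alone. Among 7226 tested genes with a pathway, 3.96% rose and 0.900% fell. In plant-pathogen interaction 48 of 379 genes rose (12.7%) and 5 fell, and in plant hormone signal transduction 41 of 363 rose (11.3%) and 7 fell. In ascorbate and aldarate metabolism 9 of 66 rose (13.6%) and in alpha-linolenic acid metabolism, which holds jasmonate synthesis, 9 of 84 rose (10.7%). Cutin, suberine and wax biosynthesis was the reverse, with 1 of 70 higher and 6 lower (8.57%). Few of these calls were in the stable set, which held 4 genes of plant-pathogen interaction, 1 of hormone signalling and 0 of the other 3 pathways. Of 118 pathways with at least 10 tested genes 26 had no call.

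Some called genes lay next to each other in the table's order along a chromosome. Of the 972 genes that rose 243 (25.0%) lay in 93 runs of neighbours that all rose. Of the 224 genes that fell 25 (11.2%) lay in 12 runs. The share for genes placed at random was not worked out. Since 4.34% of tested genes rose and 1.00% fell, the shares of the 2 directions cannot be compared directly. The longest run held 9 genes described as pollen major allergen No.121, on chromosome 1 in block 1000000001 from 208325941 to 209726396. Pollen allergen PchiChr1G029300 of this run was at 1.02, 1.67 and 0.179 FPKM in CK and at 16.6, 20.7 and 17.5 at day 1, and PchiChr2G063790 on chromosome 2 was at 0.560, 1.90 and 0.148 FPKM in CK and at 30.8, 25.6 and 31.2 at day 1. Another run held 6 genes named CYP728Q13 on chromosome 10, and 5 genes named CYP725A9 lay on chromosome 11 in block 500000001 from 481909300 to 483585760. The peroxidase run described above held 5 genes, between 98960427 and 101393507 in block 1000000001 of chromosome 5. In such runs near-identical copies may share reads, so the number of genes in a run is uncertain.

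In the lists for other cell types and sources, calls were found only among pollen, cone and seed names. Of 52 genes named for pollen, cones or seeds 11 rose, all copies of the allergen, and 1 fell (4.34% and 1.00% of all tested genes). The number that rose was 0, 2 and 10 without CK libraries 1, 2 and 3. The summed level of this list was 568 to 769 FPKM in CK and 1317, 3086 and 1373 FPKM at day 1, and 6 to 11 members were at 0 in a library. Of 8 guard cell genes 0 passed by edgeR, with 1 lower at an unadjusted p under 0.05 and 1 by DESeq2, and a KAT1-like potassium channel (PchiChr10G294090) came nearest (edgeR adjusted p = 0.103). The summed level of the guard cell list was 30.9 to 36.3 FPKM in CK and 29.2 to 39.4 FPKM at day 1. Of 3 xylem genes 0 passed by edgeR, with 1 at an unadjusted p under 0.05 and 0 by DESeq2, and the list summed to 23.4 to 27.7 FPKM in CK and 12.2 FPKM in day 1 library 2, with the other day 1 libraries above CK. Of 15 genes with viral, fungal, bacterial or insect names 0 passed by edgeR, with 1 at an unadjusted p under 0.05 and 1 by DESeq2, and the list summed to 721 to 803 FPKM in CK and 641 to 757 FPKM at day 1. Their part in the results was not tested.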

How the data were processed

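Per the labels' protocols, leaf RNA was extracted with TRIzol and polyadenylated RNA went into VAHTS Universal V6 libraries. The submitters' processing notes name fastp, HISAT2 and HTSeq. No source used here gives a genome build or tool versions. Per gene, the authors deposited estimated counts and FPKM with descriptions and KEGG terms. The deposited counts were whole numbers that stood 0 to 1 above a value proportional to FPKM in 100% of 575 low values compared (tolerance 0.05), so they had been rounded up. They were used as counts.

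The counts of all 9 libraries entered 1 fit in edgeR 4.0.16 (R 4.3.3), with TMM scaling, filterByExpr with a minimum count of 10, and the contrast MeJA 1 day minus CK. The quasi-likelihood test was adjusted by Benjamini-Hochberg over 22384 genes at 0.05, and SE is that of the log2 fold change. Printed levels are the authors' deposited FPKM. Distances from CK use TMM-scaled log2 CPM with a prior count of 2. A gene at 0 in a group was compared with a floor of 3 counts over the group, and intervals (95%) cover counting error only. The script was tested on simulated data. Alternatives were 19 fits, including DESeq2 1.42.0 and limma 3.58.1 on counts or on log2(FPKM + 1) and log2(FPKM + 0.1), and each library left out. Libraries of a group differed by more than counting error (chi-square per degree of freedom 105 to 996), so none was counted as a repeat.

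Named genes were the 12 higher and 12 lower calls with the largest changes at 5 FPKM or more with an informative description and all 3 day 1 libraries beyond CK, for each of 53 lists the 2 members called with the lowest adjusted p (or, with none called, the one nearest), and for library 2 the 4 genes of highest FPKM in each pattern. Genes of the stable set were named after their values were seen. The members and lists were chosen with earlier results of these data known, and several list patterns (transporters, GRAS, heat shock, peroxidase, xylem and viral names) were corrected after their matches and values were seen. Descriptions rest on similarity to other species, which was not tested. No sequences or genome were used here.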

Additional observations from a re-analysis of the deposited data

How the results depend on the processing

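The counts of calls depended on the tool and the libraries. DESeq2 called 2440 genes higher and 1311 lower (2154 and 1262 with all 3 day 1 libraries beyond all CK libraries), and limma voom with sample quality weights called 1825 and 1207 (1655 and 1120). Limma on log2(FPKM + 1) called 473 lower and on log2(FPKM + 0.1) 357 lower, and a fit of only the 6 CK and day 1 libraries called 446 and 88. With 1 library of the 9 left out, higher calls ran from 119 to 990 and lower calls from 12 to 224. Median-of-ratios factors, library size scaling and both other filters on low counts stayed within 1.5 times of the full counts. The median log2 fold change of all genes was 0.03, and -0.09 with library size alone and -0.11 on log2(FPKM + 1). Same-numbered libraries of the 2 groups did not deviate together (correlations -0.123 to -0.0888, and 0 of 6 libraries correlated best with their own number), and a fit with the replicate block called 646 higher and 101 lower (641 and 101 beyond all CK libraries). No called gene named in the text reversed its direction in these alternatives. The cause of these differences was not tested. With 3 libraries a group, and separate plants not stated, single calls near the threshold are uncertain.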
